A study of Mus musculus with 13 samples.

Results

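The genes described here make fatty acids from sugar in the liver: the transcription factor genes Srebf1 and Mlxipl, and 8 enzyme genes, Acly, Acaca, Acacb, Fasn, Scd1, Elovl6, Me1 and Pklr. They were taken as a listed set of 10 genes from the 18820 genes that the array measured with a feature of exactly 1 gene symbol, and all 10 were found. Where a gene had more than 1 such feature, the one with the highest mean over all livers was used. Liver RNA of 13 mice on the C57BL/6J background was hybridised to 1 array each, and the values are log2 expression after robust multi-array averaging (RMA), so that a difference of 1 unit is a doubling.

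The groups were wild-type livers at 3 weeks (n = 3), livers with a hepatocyte-specific loss of Sel1L at 3 weeks (n = 4), and 3 livers of each genotype at 9 weeks. Sel1L works with the ubiquitin ligase Hrd1 to clear misfolded proteins from the endoplasmic reticulum. The deficient mice, labelled LiSel1l_KO, carried Sel1l alleles with exon 6 between loxP sites. They also carried Cre recombinase under the albumin promoter, which is active in hepatocytes. The deletion is thus aimed at hepatocytes, and Sel1l was not measured by cell type. The selection cassette of the allele had been removed by crossing to FLPe mice. The labels state neither the sex of the mice nor whether wild-type mice carried floxed alleles or Cre. They do not say how the mice were split over litters or extraction days, so p-values measure the spread between these livers only. All mice had been fasted in the morning for 5 to 6 hours, a state in which hepatic lipogenesis is known to decline.

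De novo lipogenesis turns the citrate left over from glucose breakdown into palmitate and then into longer and unsaturated fatty acids. In the liver it is switched on after a meal by a pair of transcription factors. SREBP1c, from Srebf1, is made and released by cleavage of its membrane-bound precursor under insulin, and ChREBP, from Mlxipl, is activated by sugar phosphates. Both act on overlapping sets of enzyme genes, and Pklr is the textbook target of ChREBP.

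Promoter sequences were searched for motifs tied to these factors. RefSeq promoter windows of 300 bases (250 before to 50 after the start, build GRCm38.p6) were at hand for 9 of the 10 genes, in 14 windows, and Scd1 had none. A window of Pklr and one of Mlxipl are shown because the first holds the only carbohydrate response element found in the 14, and the second the only E-box. Both are on the plus strand, at chr3:89136373-89136672 and chr5:135089640-135089939, and the capitals mark the motif.
Pklr: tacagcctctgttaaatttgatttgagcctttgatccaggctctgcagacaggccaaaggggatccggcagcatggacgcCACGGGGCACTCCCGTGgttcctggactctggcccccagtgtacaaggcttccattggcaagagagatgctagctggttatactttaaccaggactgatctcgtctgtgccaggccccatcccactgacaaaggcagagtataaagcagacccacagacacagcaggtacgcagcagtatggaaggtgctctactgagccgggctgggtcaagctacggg
Mlxipl: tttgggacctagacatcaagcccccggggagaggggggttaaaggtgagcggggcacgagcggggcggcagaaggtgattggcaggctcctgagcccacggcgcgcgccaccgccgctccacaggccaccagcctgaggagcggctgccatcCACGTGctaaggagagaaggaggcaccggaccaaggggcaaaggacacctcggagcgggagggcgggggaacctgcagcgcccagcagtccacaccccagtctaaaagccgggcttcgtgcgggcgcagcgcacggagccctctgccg

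The Pklr motif begins at position -170 from the start and joins the E-box-like sites CACGNG and CNCGTG with 5 bases between them. This pattern was in 0.0457% of the 32851 windows of the table. The Mlxipl E-box, CACGTG, begins at -98, and 7.15% of all windows hold one. The sterol regulatory element core TCACNCCAC was found in 1 of the 14 windows, the other window of Mlxipl (TCACACCAC at -136), against 1.24% of all windows. CCAAT, the NF-Y motif, was in 8 of the 14 windows (37.4% of all windows) and GGGCGG, the Sp1 motif, in 5 (35.7%). In the Fasn window CCAAT occurred at 3 places, -90, -62 and -59. Every motif was searched on both strands, no motif found in the Pklr and Mlxipl windows overlapped another, and a match describes the letters of the window only.

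At each age the targeted gene, Sel1l, had no overlap between genotypes and was lower in the deficient livers. Log2 values ran from 8.77 to 8.94 in wild type against 7.10 to 8.42 at 3 weeks, and 8.70 to 8.78 against 7.54 to 7.90 at 9 weeks. The difference did not pass the threshold at either age (limma adjusted p = 0.391 and 0.108). Array medians lay between 3.72 and 3.81, and all 10 genes were above them in every liver. Hepatocyte markers were high throughout (mean level of 8 measured genes between 12.24 and 12.47 in the 13 livers). Of the 7 measured fat cell markers, 2 were above the array medians in each group, Fabp4 (4.42 to 5.82) and Lipe (5.98 to 6.62), and the defining marker Adipoq (1.99 to 2.25) was below them.

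At 3 weeks the 8 enzyme genes were lower in Sel1L-deficient liver while the factor genes were level with wild type. The log2 differences of the enzymes lay between -1.11 (Elovl6) and -0.48 (Acly), with a median of -0.87, and the median over all 18820 genes was 0. All 8 enzymes were below 0, as were 50.6% of all genes. Of the 10 genes, 0 passed an adjusted p of 0.05 in limma, as did 0% of the 35556 features. Before adjustment, 6 enzymes had p under 0.05 in the lower direction, as did 3.93% of all genes. In 5 enzymes (Acaca, Acacb, Scd1, Elovl6 and Me1) every deficient liver lay below every wild-type liver, as in 3.79% of all genes. In bulk tissue, fewer cells of a type and less RNA per cell cannot be told apart. The 8 measured hepatocyte markers had a median difference of 0.02 at this age (range -0.07 to 0.19, 6 above 0).

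**Figure D1:**
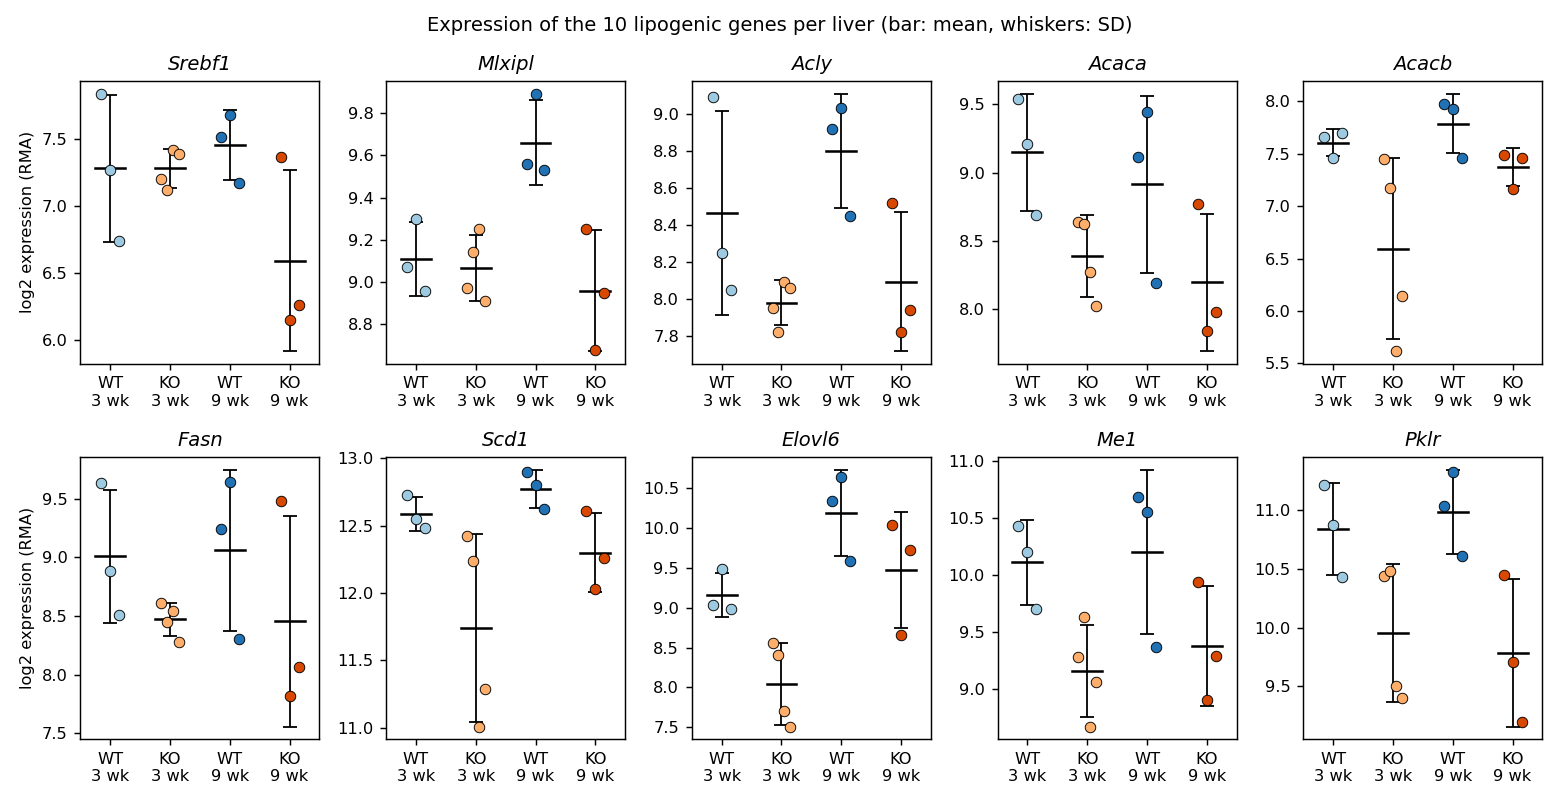
Log2 expression (RMA) of each of the 10 genes in each liver, by genotype (WT, wild type; KO, Sel1L-deficient) and age; points are livers, the bar is the group mean and the whiskers are 1 SD, with a separate vertical scale for each gene. Acacb and Scd1 show deficient livers at 3 weeks in a higher and a lower pair, and Mlxipl at 9 weeks shows no overlap of the genotypes.

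Srebf1 encodes SREBP1. At 3 weeks the wild-type livers had 7.84, 7.27 and 6.74 and the deficient livers 7.20, 7.12, 7.42 and 7.39. The deficient livers all fell inside the wild-type range, and the difference was 0.00 ± 0.30 (SE; 95% confidence interval -0.66 to 0.67; limma adjusted p = 0.999). Mlxipl, which encodes ChREBP, stood at 9.07, 9.30 and 8.96 in wild type against 8.97, 9.14, 9.25 and 8.91. These overlap as well, with a difference of -0.04 ± 0.15 (interval -0.37 to 0.28; limma adjusted p = 0.966). Neither interval reaches the median enzyme difference of -0.87. That of Srebf1 is wide, however, and holds the differences of Acly (-0.48) and Fasn (-0.53).

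Acly makes cytosolic acetyl-CoA from citrate. Its wild-type values were 9.09, 8.25 and 8.05, and its deficient values 7.95, 7.82, 8.09 and 8.06. The deficient values cluster near the lowest wild-type liver, with overlap (-0.48 ± 0.25, SE; limma adjusted p = 0.709). Acaca and Acacb encode the carboxylases that make malonyl-CoA, the first for synthesis and the second, at the mitochondrion, as a brake on fatty acid import. Acaca was 9.54, 9.21 and 8.69 in wild type against 8.64, 8.62, 8.27 and 8.02, a difference of -0.76 ± 0.33 (limma adjusted p = 0.652). The gap between its groups was narrow, at 8.69 against 8.64.

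Acacb split the deficient livers. Wild type stood at 7.66, 7.46 and 7.70, deficient replicates 1 and 2 at 7.45 and 7.17, and replicates 3 and 4 at 5.62 and 6.14. The difference of -1.01 ± 0.36 (SE; limma adjusted p = 0.597) therefore comes with an SD of 0.86 in the deficient group against 0.13 in wild type. Scd1, the desaturase that makes oleate, had the same layout. It was 12.73, 12.55 and 12.48 in wild type, 12.42 and 12.24 in deficient replicates 1 and 2, and 11.01 and 11.29 in replicates 3 and 4 (-0.85 ± 0.30; limma adjusted p = 0.588).

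For Fasn, the fatty acid synthase, wild-type livers had 9.63, 8.88 and 8.51 and deficient livers 8.61, 8.45, 8.54 and 8.28. Here the deficient livers lay close together (SD 0.14) and the wild-type livers were spread (SD 0.57). The difference of -0.53 ± 0.42 (SE; limma adjusted p = 0.804) is of the size of that wild-type spread. Without wild-type replicate 1 it was -0.22, and that of Acly -0.17. Elovl6, which extends palmitate to stearate, was 9.03, 9.48 and 8.98 in wild type against 8.56, 8.41, 7.70 and 7.51. It had the largest difference of the set at this age, -1.11 ± 0.37 or 0.462-fold (95% confidence interval -1.93 to -0.30; limma adjusted p = 0.557).

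Me1, malic enzyme, supplies NADPH for the synthase. Wild-type livers had 10.43, 10.20 and 9.70 and deficient livers 9.28, 9.63, 8.67 and 9.06, without overlap (-0.95 ± 0.36, SE; limma adjusted p = 0.609). Pklr, the liver pyruvate kinase at the end of glycolysis, was 11.21, 10.87 and 10.43 against 10.44, 10.48, 9.50 and 9.40. Its replicates 1 and 2 were level with the lowest wild-type liver, and replicates 3 and 4 lay well under it (-0.88 ± 0.36; limma adjusted p = 0.637).

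Replicates 3 and 4 of the 3-week deficient livers thus held the lowest 3-week values of Acaca, Acacb, Scd1, Elovl6, Me1 and Pklr. Averaged over the 8 enzymes, the 4 deficient livers stood -0.44, -0.51, -1.19 and -1.15 from the wild-type mean, and the wild-type livers 0.30, 0.00 and -0.30. All 8 enzymes were below the wild-type mean in each of the 4, but so were 7 of the 8 in wild-type replicate 3. With replicates 3 and 4 both left out, a choice made after seeing the data, the median over the 10 genes moved from -0.80 to -0.43. The enzymes then differed by -0.67 (Elovl6) to -0.26 (Scd1), all 8 still below 0 and 0 of the 10 past the threshold. Those same livers had the least Sel1l (7.20 and 7.10), while their Srebf1 (7.42 and 7.39) was the highest of the deficient livers of that age.

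**Figure D2:**
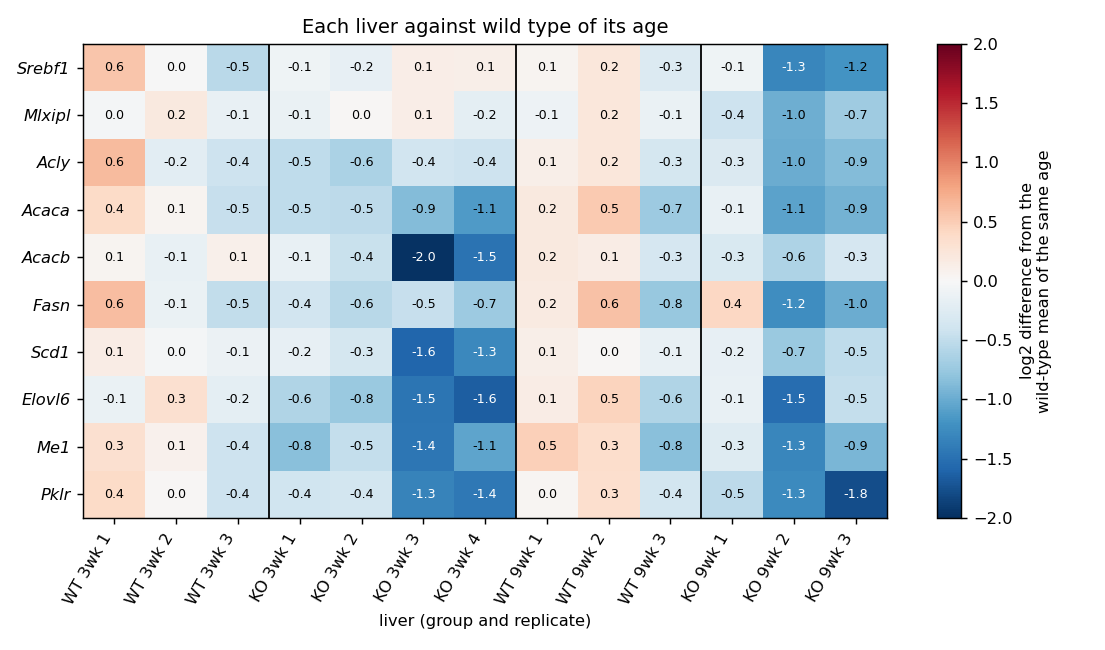
Log2 difference of each gene (rows) in each liver (columns) from the wild-type mean of the same age, with the value printed in each cell to 1 decimal; blue is lower and red is higher. KO 3wk 3 and KO 3wk 4 are blue for the enzymes but near 0 for Srebf1 and Mlxipl. KO 9wk 2 and KO 9wk 3 are blue in all 10 rows. A wild-type liver, WT 9wk 3, and KO 3wk 1 are also below 0 in all 10, by smaller amounts in most rows.

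Markers of some other cell types were lower beside the enzymes at 3 weeks, though 0 passed in limma (smallest adjusted p = 0.391). Bile duct and lymphocyte markers had medians of -0.05 and -0.06. All 8 Kupffer cell markers were below 0 (median difference -0.40), with mean levels of 7.78 to 7.87 in wild type and 7.25 to 7.60 in deficient livers. All 8 stellate markers were below 0 too (median -0.27; 7.57 to 7.84 against 7.20 to 7.75), as were 6 of 8 sinusoidal endothelial markers (median -0.22; 8.09 to 8.19 against 7.81 to 8.11) and the 4 measured erythroid markers (median -0.67; 4.61 to 5.37 against 4.11 to 4.62). The part of these cells in the enzyme differences was not tested. Array names carry a position whose column was 5 or 7, taken here as the plate column. Within these, the median enzyme difference was -0.82 in column 5 and -0.87 in column 7, where a single 3-week wild-type array (1) was placed.

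At 9 weeks the factor genes were lower as well, so that all 10 genes lay below wild type, as did 51.8% of all genes. The median difference was -0.72, against -0.01 over all genes, and the range ran from -1.20 (Pklr) to -0.42 (Acacb). In limma 0 of the 10 passed the threshold, where 0.484% of all features were called lower. Before adjustment 4 genes had p under 0.05 in the lower direction (Srebf1, Mlxipl, Acly and Pklr), against 6.85% of all genes. The groups did not overlap for Mlxipl, Scd1 and Pklr, in each case with deficient livers lower, as in 9.34% of all genes.

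Mlxipl came nearest to the threshold. Wild-type livers stood at 9.56, 9.89 and 9.53 and deficient livers at 9.25, 8.68 and 8.95, a clean separation. The difference was -0.70 ± 0.16 (SE; 0.616-fold; 95% confidence interval -1.05 to -0.35; limma adjusted p = 0.0577). It passed when only features with 1 gene symbol were tested (adjusted p = 0.0283), when only features above the median level were (0.0321), and with a variance trend and robust settings in limma (0.0467). It also passed without deficient replicate 1 (adjusted p = 0.0173). With any other single liver left out it did not pass, and the adjusted p reached 0.215. With the plate column or the replicate number as a block, the limma adjusted p was 0.0829 and 0.132. It was 0.227 with only the groups compared, 0.0639 with arrays centred on their medians and 0.0681 after quantile normalization.

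For Srebf1 the wild-type livers had 7.52, 7.68 and 7.17 and the deficient livers 7.37, 6.15 and 6.26. Replicate 1 of the deficient group lay within the wild-type range and the other 2 lay a full log2 unit or nearly so below its lowest liver. The difference was -0.86 ± 0.32 (SE; 95% confidence interval -1.57 to -0.15; limma adjusted p = 0.248), and without replicate 1 it was -1.25 (adjusted p = 0.0318). Without replicate 2 or 3 it was -0.64 or -0.70 (limma adjusted p = 0.573 and 0.546).

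Pklr had the largest difference of the set at this age. Wild-type livers had 11.03, 11.32 and 10.61 and deficient livers 10.45, 9.71 and 9.20, a difference of -1.20 ± 0.38 or 0.436-fold (95% confidence interval -2.03 to -0.36; limma adjusted p = 0.165). Every deficient liver was below the lowest wild-type liver, replicate 1 by a small margin. Acly was 8.92, 9.03 and 8.45 against 8.52, 7.82 and 7.94 (-0.71 ± 0.27; limma adjusted p = 0.243), with replicate 1 again among the wild-type values.

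Wild-type replicate 3 was low and deficient replicate 1 high for most of the remaining enzymes, which widened both groups. For Acaca the wild-type livers had 9.11, 9.44 and 8.19 and the deficient livers 8.77, 7.84 and 7.98 (-0.72 ± 0.35, SE; limma adjusted p = 0.395). Fasn was 9.24, 9.64 and 8.30 against 9.48, 7.82 and 8.06 (-0.60 ± 0.44; limma adjusted p = 0.612). Me1 was 10.68, 10.55 and 9.37 against 9.94, 8.90 and 9.29 (-0.82 ± 0.38; limma adjusted p = 0.368). In all of these the third wild-type liver overlapped the deficient group. Single livers moved these values: Fasn was -0.29 without deficient replicate 2, -0.31 without wild-type replicate 2, -0.99 without wild-type replicate 3 and -1.12 without deficient replicate 1. Acaca was -0.45 without wild-type replicate 2, and Me1 -1.24 without wild-type replicate 3.

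Elovl6 was 10.34, 10.64 and 9.59 against 10.04, 8.66 and 9.72, with deficient replicates 1 and 3 above the lowest wild-type liver (-0.72 ± 0.40, SE; limma adjusted p = 0.466; -0.31 without deficient replicate 2). Scd1 stood at 12.90, 12.80 and 12.62 in wild type against 12.61, 12.03 and 12.26, separated by 12.62 against 12.61 (-0.47 ± 0.32; limma adjusted p = 0.577). Acacb was 7.97, 7.93 and 7.46 against 7.49, 7.16 and 7.46, the smallest difference of the set (-0.42 ± 0.39; 95% confidence interval -1.27 to 0.43; limma adjusted p = 0.708). The low pair seen for Acacb at 3 weeks had no counterpart here. For Scd1, deficient replicates 2 and 3 lay -0.74 and -0.51 from the wild-type mean, beside -0.16 in replicate 1. The 3-week low pair of Scd1 lay farther down, at -1.58 and -1.29.

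**Figure D3:**
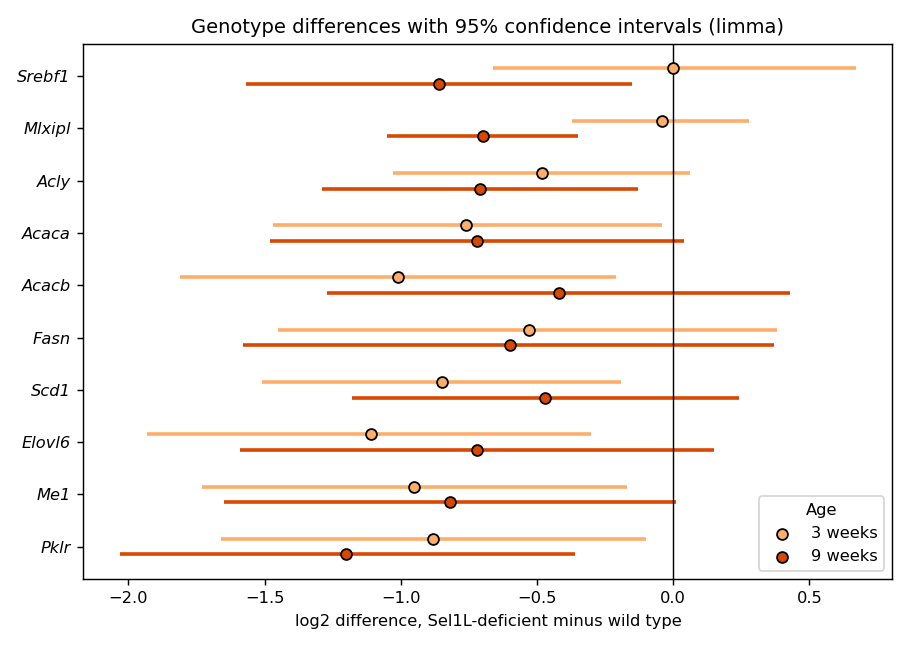
Log2 difference between Sel1L-deficient and wild-type liver for each gene at 3 weeks (light) and 9 weeks (dark); points are limma estimates and lines their 95% confidence intervals, without adjustment for multiple tests. The 3-week points of Srebf1 and Mlxipl sit at 0.00 and -0.04, while the other points lie at -0.42 or lower.

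Averaged over the 8 enzymes, the 9-week deficient livers stood -0.18, -1.10 and -0.85 from the wild-type mean, and the wild-type livers 0.19, 0.33 and -0.52. Wild-type replicate 3 was thus lower than deficient replicate 1. It had all 8 enzymes below the wild-type mean, against 7 in deficient replicate 1. The median enzyme difference was -0.84 within plate column 5, which held 1 wild-type liver, and -0.91 within column 7, which held 1 deficient liver. Kupffer, stellate and endothelial markers had median differences of 0.07, -0.13 and 0.00 at this age, and hepatocyte markers one of -0.13 with 7 of 8 below 0 (mean levels of 12.40 to 12.47 in wild type and 12.24 to 12.38 in deficient livers). Kupffer marker means were 7.02 to 7.52 in wild type, and 6.55 in deficient replicate 1, the liver nearest to wild type in the enzymes, beside 7.72 and 7.73 in the other deficient livers. All 4 erythroid markers were below 0 (median -0.19; mean levels of 4.28 to 4.64 in wild type and 3.93 to 4.26 in deficient livers). The part of these markers in the result was not tested.

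The change of the genotype difference with age was tested directly. For Mlxipl the 9-week difference was lower than the 3-week difference by 0.66 ± 0.22 (log2 difference of differences -0.66, SE; limma adjusted p = 0.388), and for Srebf1 the value was -0.86 ± 0.44 (limma adjusted p = 0.560). The 8 enzymes ranged from -0.31 (Pklr) to 0.59 (Acacb), with 5 above 0 and 3 below. Of the 10 genes 0 passed in limma, as did 0% of all features, and 1, Mlxipl, had an unadjusted p under 0.05 (0.0119), against 10.9% of all genes. The shift of the factor genes between ages thus did not pass the test. Without 3-week deficient replicates 3 and 4 the value turned below 0 for Acaca, Acacb, Scd1, Elovl6 and Me1 (-0.21 to -0.05).

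With age in wild type, Mlxipl and Elovl6 were higher at 9 weeks in every liver, as were 8.96% of all genes in that direction. Mlxipl went from 9.11 ± 0.17 to 9.66 ± 0.20 (SD, n = 3 each; limma adjusted p = 0.130) and Elovl6 from 9.16 ± 0.28 to 10.19 ± 0.54 (limma adjusted p = 0.269). The other 8 genes differed by -0.23 (Acaca) to 0.34 (Acly). In deficient liver Elovl6 was again higher at 9 weeks without overlap (8.05 ± 0.52, n = 4, to 9.47 ± 0.72, n = 3; limma adjusted p = 0.191), the 1 gene of the set where this held, against 5.52% of all genes. Srebf1 was lower at 9 weeks in deficient liver (7.28 ± 0.14 to 6.59 ± 0.68; limma adjusted p = 0.477). In each genotype 0 of the 10 passed in limma, where 1.89% of all features were called in wild type and 0.155% in deficient liver. Before adjustment, 2 of the 10 had p under 0.05 in each genotype (15.1% and 12% of all genes). The genotype and age comparisons share livers, so they are not independent of each other.

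Ordered by group mean, wild type at 9 weeks was highest for 9 of the 10 genes, and wild type at 3 weeks for Acaca. The lowest group was the 3-week deficient one for Acly, Acacb, Scd1, Elovl6 and Me1, and the 9-week deficient one for Srebf1, Mlxipl, Acaca, Fasn and Pklr. Neighbouring groups in these orders mostly differed by less than their SDs. For Pklr, as an example, the means were 10.99 ± 0.36, 10.84 ± 0.39, 9.95 ± 0.58 and 9.79 ± 0.63 (SD) in the order wild type at 9 and 3 weeks and deficient at 3 and 9 weeks. There the step between genotypes exceeded the SDs and the steps between ages did not.

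A second feature was present for Acaca and for Me1. It gave differences of -0.72 ± 0.35 and -0.85 ± 0.37 (SE) for Acaca at 3 and 9 weeks, and -0.96 ± 0.36 and -0.83 ± 0.38 for Me1. Both features of a gene thus gave differences within 1 SE of each other. The other 8 genes had 1 feature each.

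The enzymes were set against the factor genes over the 13 livers, as 16 relations with p-values from 100000 permutations and Benjamini-Hochberg adjustment over the 16. Fasn followed Srebf1 most closely (Pearson r = 0.800, adjusted permutation p = 0.0147; Spearman rho = 0.791, adjusted p = 0.0149). Acly was next (r = 0.722, adjusted permutation p = 0.0274; rho = 0.857, adjusted p = 0.00496). Without the 2 livers farthest from the Srebf1 median, deficient replicates 2 and 3 of 9 weeks, r was 0.708 and 0.760. When each group's mean was taken out, so that only differences between livers of the same group count, r was 0.915 for Fasn and 0.929 for Acly (adjusted permutation p = 0.0442 and 0.00304).

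Acaca (r = 0.710; rho = 0.698) and Pklr (r = 0.619; rho = 0.571) also passed for Pearson's r with Srebf1 (adjusted permutation p = 0.0274 and 0.0458), but with the same 2 livers left out r was 0.512 and 0.333. For Pklr the relation rests on those livers, and its rho did not pass (adjusted permutation p = 0.0641). With group means removed, r was 0.740 for Acaca and 0.554 for Pklr, and neither passed (adjusted permutation p = 0.0874 and 0.219). Me1 did not pass with Srebf1 over all livers (r = 0.543, adjusted permutation p = 0.0811). Its r with group means removed was 0.626 (adjusted permutation p = 0.159). Acacb, Scd1 and Elovl6 showed little relation to Srebf1, with r of 0.00, 0.16 and 0.11 and rho of 0.349, 0.467 and 0.214 (adjusted permutation p of r = 0.993, 0.721 and 0.762). In the plot of enzyme levels against factor levels, 3-week deficient replicates 3 and 4 combine the lowest enzyme means with Srebf1 values in the wild-type range.

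With Mlxipl, r ran from 0.327 (Acacb) to 0.703 (Acly) and rho from 0.501 to 0.742, and r passed for 5 enzymes (Acly, Fasn, Elovl6, Me1 and Pklr; adjusted permutation p between 0.0274 and 0.048). Without wild-type replicate 2 and deficient replicate 2 of 9 weeks the r values dropped to between 0.21 and 0.531. With group means removed, 0 of the 8 passed (r between -0.05 and 0.674). For Fasn, Acaca and Elovl6 the r with group means removed (0.674, 0.644 and 0.652) was as large as over all livers (0.623, 0.568 and 0.647), at adjusted permutation p of 0.207, 0.173 and 0.173. RNA levels do not show the cleaved or active form of either factor.

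**Figure D4:**
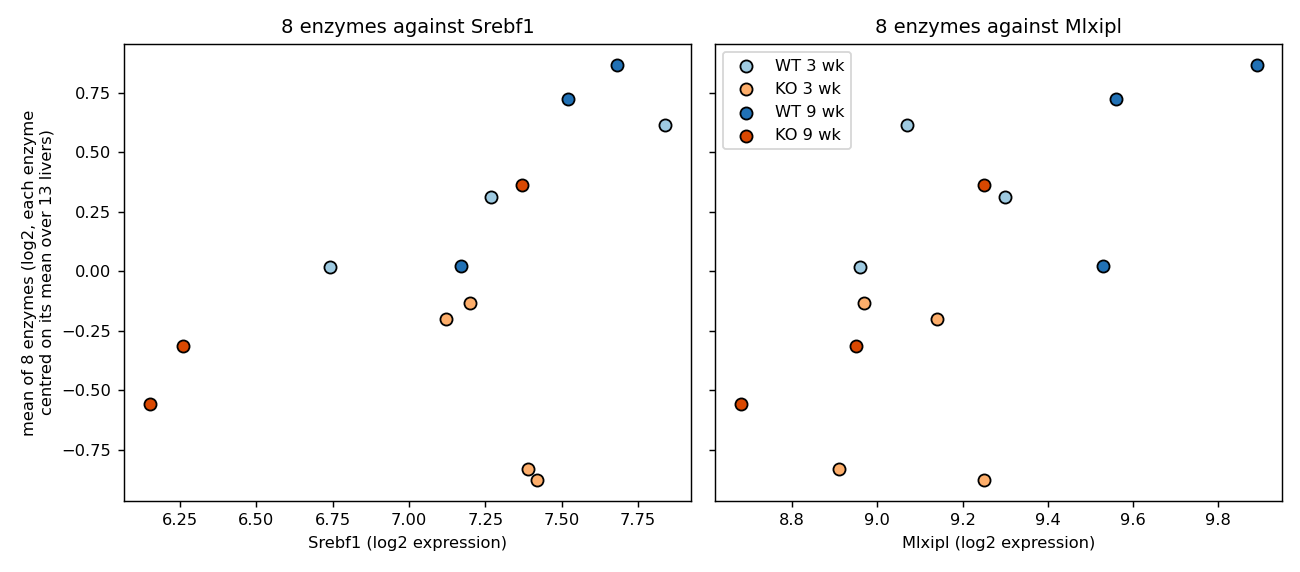
Mean log2 level of the 8 enzymes in each liver, each enzyme centred on its mean over the 13 livers, against the log2 level of Srebf1 (left) and Mlxipl (right); points are livers, coloured by group. The lowest pair of points in the left panel, 3-week deficient replicates 3 and 4, lies at Srebf1 values of 7.42 and 7.39, inside the wild-type range.

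Beyond the set, 10509 genes with a level above the array medians were ranked by how closely they followed the mean of the 8 enzymes over the 13 livers. The 5 closest were Adipor2, a receptor for adiponectin (r = 0.945), 4930402H24Rik (0.944), Nmrk1, a nicotinamide riboside kinase (0.931), Gbe1, the glycogen branching enzyme (0.925), and Rras, a small GTPase (0.905). With group means removed the same genes had r of 0.883, 0.899, 0.984, 0.923 and 0.823. These are the top of a ranking and are given as a description, without a test.

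Other genes of the pathway were read from lists. Among genes that feed sugar into the pathway (7 of 10 listed were measured) 0 passed in limma at either age, and the median differences were -0.23 at 3 and -0.29 at 9 weeks. Khk, ketohexokinase, which traps fructose, was 10.57 ± 0.28 against 10.01 ± 0.30 at 3 weeks and 10.67 ± 0.29 against 9.84 ± 0.24 at 9 weeks (SD; limma adjusted p = 0.597 and 0.0893). Gpd1, which makes glycerol phosphate, differed by -0.65 ± 0.18 at 9 weeks (SE; limma adjusted p = 0.105). Txnip, a glucose-responsive gene and ChREBP target, differed by -1.11 ± 0.35 at 3 weeks (limma adjusted p = 0.515) and was lowest in the livers where Acacb was lowest, replicates 3 and 4, at 8.58 and 8.56 beside 9.55 and 9.82 in replicates 1 and 2. Txnip was not alone in this layout. Replicates 3 and 4 were also the lower pair for Khk (9.65 and 9.86 beside 10.25 and 10.26). The same held for Lpin2, a phosphatidate phosphatase (8.71 and 9.53 beside 9.92 and 10.45). Gckr, the glucokinase regulator, went the other way (8.94 and 8.87 beside 8.25 and 8.38). The 9-week difference of Txnip was 0.22 ± 0.37, and its change between ages was 1.34 ± 0.51 (limma adjusted p = 0.445).

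Thrsp, or Spot 14, a lipogenic regulator that responds to thyroid hormone and carbohydrate, had the largest 9-week difference of the pathway genes. Wild-type livers had 11.05, 11.58 and 10.49 and deficient livers 10.30, 8.32 and 8.31. The groups did not overlap, and replicate 1 was again the deficient liver nearest to wild type (-2.06 ± 0.71, SE; limma adjusted p = 0.202). At 3 weeks it differed by -0.79 ± 0.66 (limma adjusted p = 0.824). Thrsp was listed with the modulators of acetyl-CoA carboxylase, of which 0 of 5 passed in limma at both ages, with medians of -0.03 and -0.18. Mid1ip1, which promotes polymerisation of the carboxylase, differed by -0.72 ± 0.53 at 9 weeks (limma adjusted p = 0.618), and Stk11, the kinase LKB1, by 0.17 ± 0.09 at 3 weeks (limma adjusted p = 0.717).

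The 16 measured genes upstream of the factors had median differences of -0.03 at 3 and -0.05 at 9 weeks, with 0 past the threshold in limma at either age. Before adjustment 0 of the 16 had p under 0.05 at 3 weeks, and at 9 weeks 4 did, all lower (Usf1, Prkaa2, Insr and Ppargc1b, against 6.85% of all genes). Usf1, a helix-loop-helix factor that binds E-boxes, was 0.24 ± 0.15 higher at 3 weeks and stood at -0.52 ± 0.16 at 9 weeks (SE; limma adjusted p = 0.763 and 0.157). Mlx, the partner of ChREBP, differed by 0.17 ± 0.11 at 3 weeks (limma adjusted p = 0.771), and Prkaa2, a catalytic subunit of AMP-activated kinase, by -0.42 ± 0.12 at 9 weeks (limma adjusted p = 0.117).

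NADPH and acetyl-CoA supply genes (8 of 11 measured) had a median of -0.15 at both ages and 0 past the threshold in limma. Taldo1 and Tkt, of the pentose phosphate pathway, differed by -0.36 ± 0.11 and -0.44 ± 0.15 at 3 weeks without overlap (SE; limma adjusted p = 0.515 and 0.567). Cs, citrate synthase, and Idh1, an NADPH-making dehydrogenase, differed by 0.22 ± 0.09 and -0.29 ± 0.12 at 9 weeks (limma adjusted p = 0.312 and 0.318).

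Other elongation and desaturation genes (12 of 14 measured) had medians of -0.29 and -0.14, with 11 of 12 below 0 at 3 weeks and 9 at 9 weeks, and 0 past the threshold in limma. Hsd17b12, of the elongation cycle, and Acsl5, an acyl-CoA synthetase, each differed by -0.34 ± 0.13 at 3 weeks (SE; limma adjusted p = 0.609 and 0.616). At 9 weeks Elovl1, for very long chains, differed by 0.25 ± 0.08 and Tecr, the last enzyme of the cycle, by -0.25 ± 0.09 (limma adjusted p = 0.182 and 0.233). In wild type Elovl3, an elongase, rose from 4.05 ± 1.02 at 3 weeks to 8.42 ± 2.37 at 9 weeks (SD; limma adjusted p = 0.0441), the 1 call among these lists. The call is fragile. Leaving out any single liver other than 9-week wild-type replicate 2 ended it (adjusted p from 0.0568 to 0.128), and without that replicate it was 0.0167. It was also lost with the plate column (0.0777) or the replicate number (0.0582) as a block. The 9-week wild-type values were 8.05, 6.24 and 10.95, and the deficient ones 7.05, 6.66 and 5.79.

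Glycerolipid synthesis genes (12 of 12 measured) had medians of -0.19 and -0.06 and 0 past the threshold in limma. Pnpla3, a lipid droplet lipase induced with lipogenesis, was 4.93 ± 0.29 in wild type and 4.28 ± 0.27 in deficient liver at 3 weeks (SD; limma adjusted p = 0.560), and Pnpla2, the triglyceride lipase ATGL, differed by -0.21 ± 0.10 (SE; limma adjusted p = 0.685). Agpat3 and Agpat2, which acylate lysophosphatidate, differed by 0.24 ± 0.08 and -0.40 ± 0.15 at 9 weeks (limma adjusted p = 0.206 and 0.262). The medians of all these lists lay nearer to 0 than that of the 8 enzymes at both ages.

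With age in wild type the other pathway genes nearest to the threshold were Prkaa2 (0.44 ± 0.12 higher at 9 weeks, SE; limma adjusted p = 0.104) and Mpc1, a subunit of the mitochondrial pyruvate carrier (-0.31 ± 0.09; limma adjusted p = 0.123). Both were without overlap between ages, as were Usf1 (0.40 ± 0.16), Taldo1 (-0.30 ± 0.12) and Gckr, the glucokinase regulator (0.17 ± 0.17), at limma adjusted p of 0.291 to 0.735. Of all 18820 genes, 1687 were higher and 1994 lower at 9 weeks in wild type without overlap. Ages overlapped for Pfkl, a phosphofructokinase (-0.18 ± 0.13), Pnpla2 (-0.24 ± 0.11), Dgat1, which completes triglycerides (0.20 ± 0.10), Stk11 (0.15 ± 0.09) and Mlycd, malonyl-CoA decarboxylase (-0.16 ± 0.11), at 0.353 to 0.625. In deficient liver Elovl3 (2.51 ± 0.89), Mpc1 (-0.27 ± 0.08) and Tecr (-0.22 ± 0.08) did not overlap between ages (limma adjusted p = 0.350, 0.270 and 0.389). Among all 18820 genes, 1038 were higher and 995 lower at 9 weeks in deficient liver without overlap. Txnip (0.99 ± 0.35), Lpin2, a phosphatidate phosphatase (0.84 ± 0.34), Gpat4, an acyltransferase (0.52 ± 0.24), Irs1, an insulin receptor substrate (0.27 ± 0.10), Usf1 (-0.35 ± 0.15), Gpd1 (-0.35 ± 0.16), Idh1 (-0.26 ± 0.12), Camkk2, a kinase upstream of AMP-activated kinase (-0.28 ± 0.17), and Stk11 (0.10 ± 0.09) overlapped, at limma adjusted p of 0.348 to 0.807.

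The change of the genotype difference with age passed in limma for 0 genes of these lists. The smallest adjusted p was 0.340, for Usf1 (-0.76 ± 0.22, SE), and the values for Insr, the insulin receptor (-0.26 ± 0.12), Cs (0.29 ± 0.13), Idh1 (-0.33 ± 0.17), Elovl1 (0.29 ± 0.11), Hacd3, a dehydratase of the elongation cycle (0.41 ± 0.17), Pnpla2 (0.37 ± 0.15), Gpam, the mitochondrial acyltransferase (0.33 ± 0.17), Gckr (-0.45 ± 0.23), Mid1ip1 (-0.98 ± 0.73) and Thrsp (-1.27 ± 0.97) had adjusted p of 0.443 to 0.720.

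**Figure D5:**
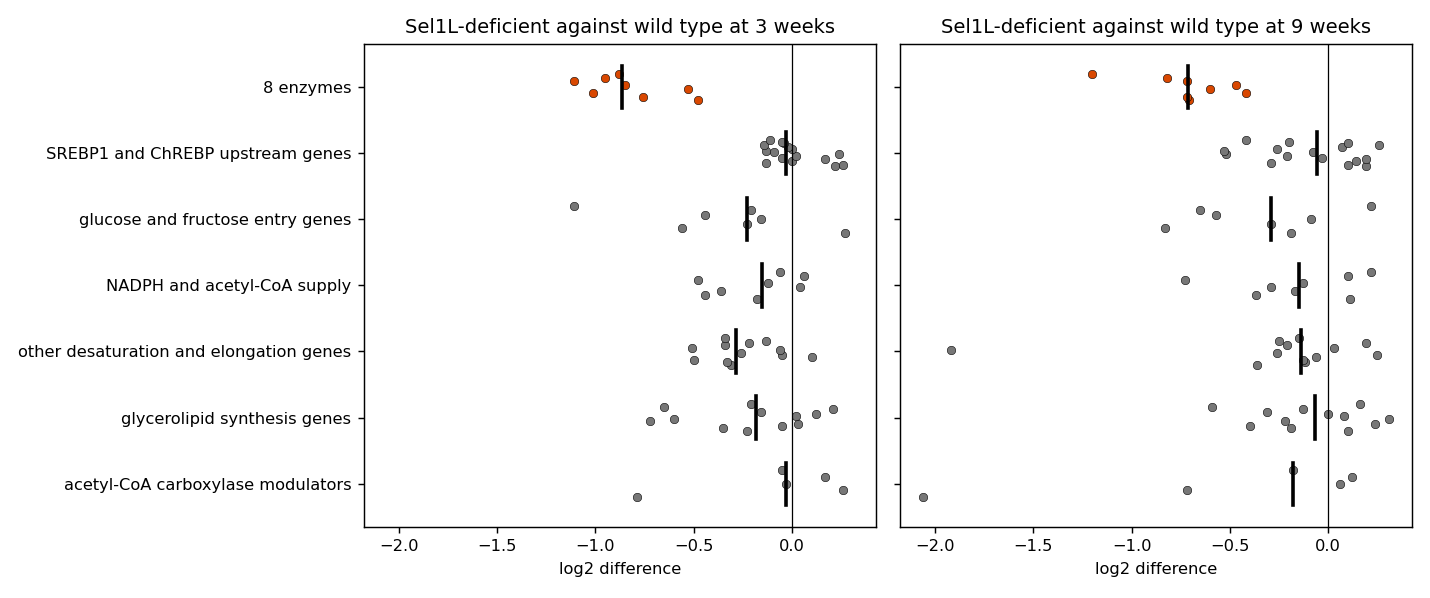
Log2 difference between Sel1L-deficient and wild-type liver at 3 weeks (left) and 9 weeks (right) for the 8 enzymes and for the other pathway lists; points are genes and the vertical bars are list medians. The enzyme medians of -0.87 and -0.72 lie left of every other list median, and Thrsp (-2.06) and Elovl3 (-1.92) are the leftmost points at 9 weeks.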

How the data were processed

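The deposited table holds the authors' log2 expression values, 1 per feature and liver, made by RMA per the submitters' processing notes, which give no version. RMA makes array distributions alike, so a shift common to most genes would be largely removed. Features were named from the platform annotation, and a gene stands for its 1-symbol feature with the highest mean over 13 livers.

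limma 3.58.1 in R 4.3.3 fitted 1 mean per group to all 35556 features (eBayes). Two-sided tests were corrected over every feature by Benjamini-Hochberg, with 0.05 as threshold. Titles gave group and replicate; the array names of both 9-week livers titled replicate 3 carry the number 4. The fit was tested on simulated data. Only 13 arrays limit the precision, and the median SD of a feature within a group was 0.148 to 0.156.

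The members and lists were chosen with earlier results of these data known. Of 154 listed genes 129 had a feature. Named genes are the members, Sel1l, the 5 genes closest to the enzymes, and from each pathway list the called genes, or the 2 with the smallest p-values, of each comparison. Normalization, features tested, samples fitted, variance model, plate column, replicate number and single livers were varied.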

Additional observations from a re-analysis of the deposited data

How the results depend on the processing

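At 3 weeks Srebf1 was -0.02 with arrays centred on their medians, -0.01 after quantile normalization, -0.03 with the replicate block and -0.12 without deficient replicates 3 and 4, and Mlxipl was 0.01 with the replicate block. Leaving out 1 liver gave -0.27 to 0.28 for Srebf1 and -0.12 to 0.05 for Mlxipl, the enzyme differences, all below 0, moved by over 1.5 times for Acly and Fasn at 3 weeks and Acaca, Fasn, Elovl6 and Me1 at 9 weeks, and the median over the 10 genes ranged from -0.93 to -0.63 at 3 weeks and from -1 to -0.54 at 9 weeks. Features called at 3 weeks numbered 2 among 1-symbol features and 0 to 1 with 1 liver left out. At 9 weeks 1 of the 10 genes was called among features above the median level, among 1-symbol features and with variance trend and robust settings (Mlxipl each time) and with the replicate block (Pklr, adjusted p = 0.0464); with 1 liver left out the number was 0 to 2, the 2 being Srebf1 and Mlxipl without deficient replicate 1. All features called at 9 weeks (539) became 859 above the median level, 1 with only the groups compared, 294 with the plate column as a block, 184 with the replicate block and 279 without 3-week deficient replicates 3 and 4. With 1 liver left out they ranged from 18 (without deficient replicate 3) to 1178 (without deficient replicate 1), with 30, 80, 140 and 219 without deficient replicate 2 and wild-type replicates 2, 1 and 3, and 317, 352 and 359 without 3-week deficient replicates 4, 1 and 2. For the change of the genotype difference with age, 15 features were called among 1-symbol features and 0 to 36 with 1 liver left out. There Acaca was -0.05 as the mean of its features, -0.07 with the plate column, -0.08 with the replicate block and -0.20 without 3-week deficient replicates 3 and 4, and Me1 was -0.06 with the plate column. Without those replicates Me1 was -0.17, Acacb -0.13, Scd1 -0.21 and Elovl6 -0.05. With 1 liver left out Acaca ranged from -0.32 to 0.30, Fasn from -0.58 to 0.25 and Me1 from -0.29 to 0.37. With age in wild type the 672 calls became 255 with only the groups compared, 440 with the replicate block and 296 to 639 with 1 liver left out, where Srebf1 ranged from -0.10 to 0.45, Acaca from -0.50 to 0.13, Fasn from -0.24 to 0.43, Me1 from -0.15 to 0.51 and Pklr from -0.06 to 0.34. With age in deficient liver the 55 calls became 35 with centred arrays, 109 above the median level, 144 among 1-symbol features, 9 with only the groups compared, 18 with the plate column, 12 with the replicate block and 6 to 210 with 1 liver left out. Scd1 was -0.03 and Me1 -0.08 there without 3-week deficient replicates 3 and 4, and with 1 liver left out Mlxipl ranged from -0.25 to 0.03, Acly from -0.10 to 0.25, Fasn from -0.53 to 0.30, Me1 from -0.06 to 0.46 and Pklr from -0.50 to 0.13. The cause of these changes was not tested. Same-numbered livers of different groups correlated by -0.0809 to 0.182 in their deviations from group means (18 pairs, median 0.0765). Livers of different numbers correlated by -0.228 to 0.134 (45 pairs, median -0.0209). Of 13 livers, 9 correlated best with their own number. This is a hint from the data only, so the numbers were not taken to pair the livers. The 9-week livers titled replicate 3 carry the number 4 in their array names, so the block and these correlations depend on the titles being right.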
